A study of Homo sapiens with 2 samples.

Results

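The HOX clusters are 4 groups of neighbouring homeobox genes, HOXA on chromosome 7, HOXB on chromosome 17, HOXC on chromosome 12 and HOXD on chromosome 2, with antisense RNAs read between and across the coding genes. The members described here are the genes of the deposited tables whose symbol begins with HOXA, HOXB, HOXC or HOXD, together with HOTAIR, HOTTIP and HOTAIRM1. These were 55 of the 60619 genes in the tables, 39 of them coding genes and 16 RNAs called antisense here from their symbols or, for the 3 named last, their known biology. HOXA held 17 members, HOXB 14, HOXC 14 and HOXD 10. All 55 were matched by gene ID to the GENCODE 29 annotation of GRCh38.

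The RNA came from HBEC-3KT, an immortalized line of human bronchial epithelial cells that grows as basal-like cells. In the CBS group, cells had received a pLenti6 lentivirus carrying human CBS, which encodes cystathionine beta-synthase, the enzyme that joins homocysteine and serine in transsulfuration. In the control group, cells had received the empty pLenti6 virus. Both groups shared the viral exposure of 4 to 8 h, selection with blasticidin at 10 µg/mL, and growth for 4 to 5 days in PneumaCult-Ex medium on plates coated with gelatin. The sources used here do not name the promoter that drives CBS in the vector. The purpose stated for the series was to learn how CBS expression bears on Polycomb repressive complex 2 (PRC2). Each group held 1 library, so there is no replicate error and no test between conditions, and each difference is one between these 2 libraries. Intervals below are exact 95% intervals and cover counting error only.

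HOX genes encode homeodomain transcription factors that give cells their position along the body axis. Within a cluster the genes lie in the order in which they act from head to tail, and a gene of one cluster has paralogs with the same number in the others. PRC2, which methylates lysine 27 of histone H3, keeps unused HOX genes silent, and the MLL/trithorax methyltransferases keep used ones active. Antisense RNAs of the clusters, HOTAIR, HOTTIP and HOTAIRM1 among them, have been studied as partners of these complexes. In the lung, anterior and central HOXA and HOXB genes are known to be used, and HOXA5 is needed for airway development.

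The libraries summed to 20785957 counts with CBS against 20433062 in the control. CBS itself had 3669 counts after CBS transduction against 280 in the control, a ratio of 12.2 (10.8 to 13.9), in the direction of the labels; the near-identical CBSL shares its reads, and their sum gave 12.1. All 11 basal and epithelial markers were measured. By the calling rule given below, 0 were called higher, against 1.41% of the 13304 genes tested, and 2 lower, against 5.28%. TP63, the basal master regulator, had 5136 and 4946 counts and KRT5, the basal keratin, 54419 and 83759. The 2 called were the basal keratins KRT14, with 918 and 3831, and KRT15, with 1470 and 5287, while NGFR had 2294 and 1120 and KRT18 45157 and 26317. Of 6 airway lineage factors, FOXA1, FOXA2, GRHL2 and SOX2 had intervals above a ratio of 1 without reaching a fold of 2, with log2 folds from 0.47 to 0.80. Among the 13304 genes tested, 62.7% of intervals excluded 1 on either side. NKX2-1 and FOXJ1 were at 0 in both libraries. The 7 fibroblast markers summed to 6.24 and 13.8 CPM (counts scaled to library size), nearly all of it COL1A1 with 132 and 270 counts, and COL1A2, COL3A1, DCN and LUM were at 0. The 6 endothelial markers summed to 4.27 and 0.803 CPM, of which CDH5 gave 87 and 7 counts, with KDR and TEK at 0. The 6 immune markers summed to 39.7 and 124.4 CPM, with CD68 at 619 and 2259 counts, CD14 at 225 and 203, and PTPRC and CD3E at 0. The 4 neuroendocrine markers summed to 0.281 and 0.703 CPM. By the same rule COL1A1 and CD68 were called lower and CDH5 higher. The part of these differences in the HOX values was not tested.

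The HOX clusters were read from a small set of genes. Of the 55 members, 19 were at 0 in both libraries, 20 reached between 1 and 9 counts in at least 1 library and no more in either, and 16 reached at least 10. In all, the members took 1876 counts with CBS against 2112 in the control. The 20 members with 1 to 9 counts made up 40 and 42 of these. A count of 0 allows up to 3 counts (a one-sided limit at 95%), which is 0.141 CPM in the CBS library and 0.151 CPM in the control. No member at or near 0 in 1 library was well read in the other. The 37 members with at most 3 counts in the control had at most 5 with CBS. The 36 members with at most 3 counts with CBS had at most 24 in the control, the highest being HOXB9.

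HOXA took 81.9% of the HOX counts with CBS and 84.3% in the control. Its reads came from the end that holds the low-numbered, anterior genes. HOXA2, a hindbrain and second-arch gene, had 32 counts with CBS against 24 in the control. HOXA3, which patterns pharyngeal organs, was the most counted coding member, with 548 and 468. HOXA4 had 101 and 108 counts, and HOXA5, the airway and lung gene, had 175 and 148. HOXA4 and HOXA5 lie within the span of HOXA3 on the same strand, so how reads were divided among these 3 is uncertain. From HOXA6 onward the coding genes were nearly unread: HOXA6 and HOXA13 were at 0, HOXA7 had 1 and 1, HOXA9 had 0 and 2, HOXA10 had 0 and 3, and HOXA11 had 5 and 3. Each of these coding genes therefore lay under 10 counts in both libraries.

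The antisense RNAs of HOXA were as uneven. HOTAIRM1 (ENSG00000233429), a myeloid-associated RNA of the anterior end, had 344 counts with CBS against 654 in the control. HOXA-AS2 (ENSG00000253552), which runs across HOXA3 and HOXA4, had 27 and 54. HOXA10-AS had 9 and 4, HOXA11-AS had 0 and 1, and HOXA-AS3 and HOTTIP, the RNA of the HOXA13 end, were at 0. Only the antisense RNAs of the anterior end reached 10 counts.

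HOXB, at chr17:48528526-48729178, had 42 counts with CBS and 54 in the control over its 14 members. HOXB6 (ENSG00000108511) had 25 and 8 counts, HOXB9 (ENSG00000170689) had 3 and 24, and HOXB3 (ENSG00000120093) had 5 and 13. Of the others, HOXB1, HOXB8, HOXB-AS2 and HOXB-AS4 were at 0, and HOXB2, HOXB4, HOXB5, HOXB7, HOXB13, HOXB-AS1 and HOXB-AS3 had between 0 and 4 counts. HOXB3 and HOXB6 have overlapping gene spans on the same strand, so how reads were divided between them is uncertain. HOXB9 lies within the span of HOXB7 on the same strand, and the same uncertainty holds for it.

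HOXC, at chr12:53935328-54056030, had 268 counts with CBS and 239 in the control. Its reads came from 2 separated stretches. At the posterior end stood HOXC13, a hair and nail keratin regulator, with 65 counts in each library, and its antisense neighbour HOXC13-AS (ENSG00000249641) with 3 and 14. The next genes, HOXC12, HOTAIR, HOXC11, HOXC-AS3 and HOXC10, were all at 0 in both libraries. Beyond them came HOXC9 with 104 and 80 counts, HOXC8 with 47 and 40, and HOXC6 with 38 and 26. HOXC-AS1 had 6 and 9, HOXC-AS2 had 1 and 2, HOXC4 had 4 and 3, and HOXC5 was at 0. The span of HOXC6 overlaps those of HOXC9, HOXC8 and HOXC4 on the same strand, which leaves the division of reads among them uncertain. HOTAIR, the RNA of this cluster best known for its reported binding to PRC2, was thus not detected at this depth in either library.

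HOXD, at chr2:176092891-176190907, was nearly unread, with 29 counts with CBS and 38 in the control. HOXD8 gave 24 and 33 of these. HOXD-AS2 had 2 and 3 counts, HOXD3 had 2 and 0, HOXD11 had 0 and 2, and HOXD1 had 1 and 0. HOXD13, HOXD12, HOXD10, HOXD9 and HOXD4 were at 0.

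**Figure D1:**
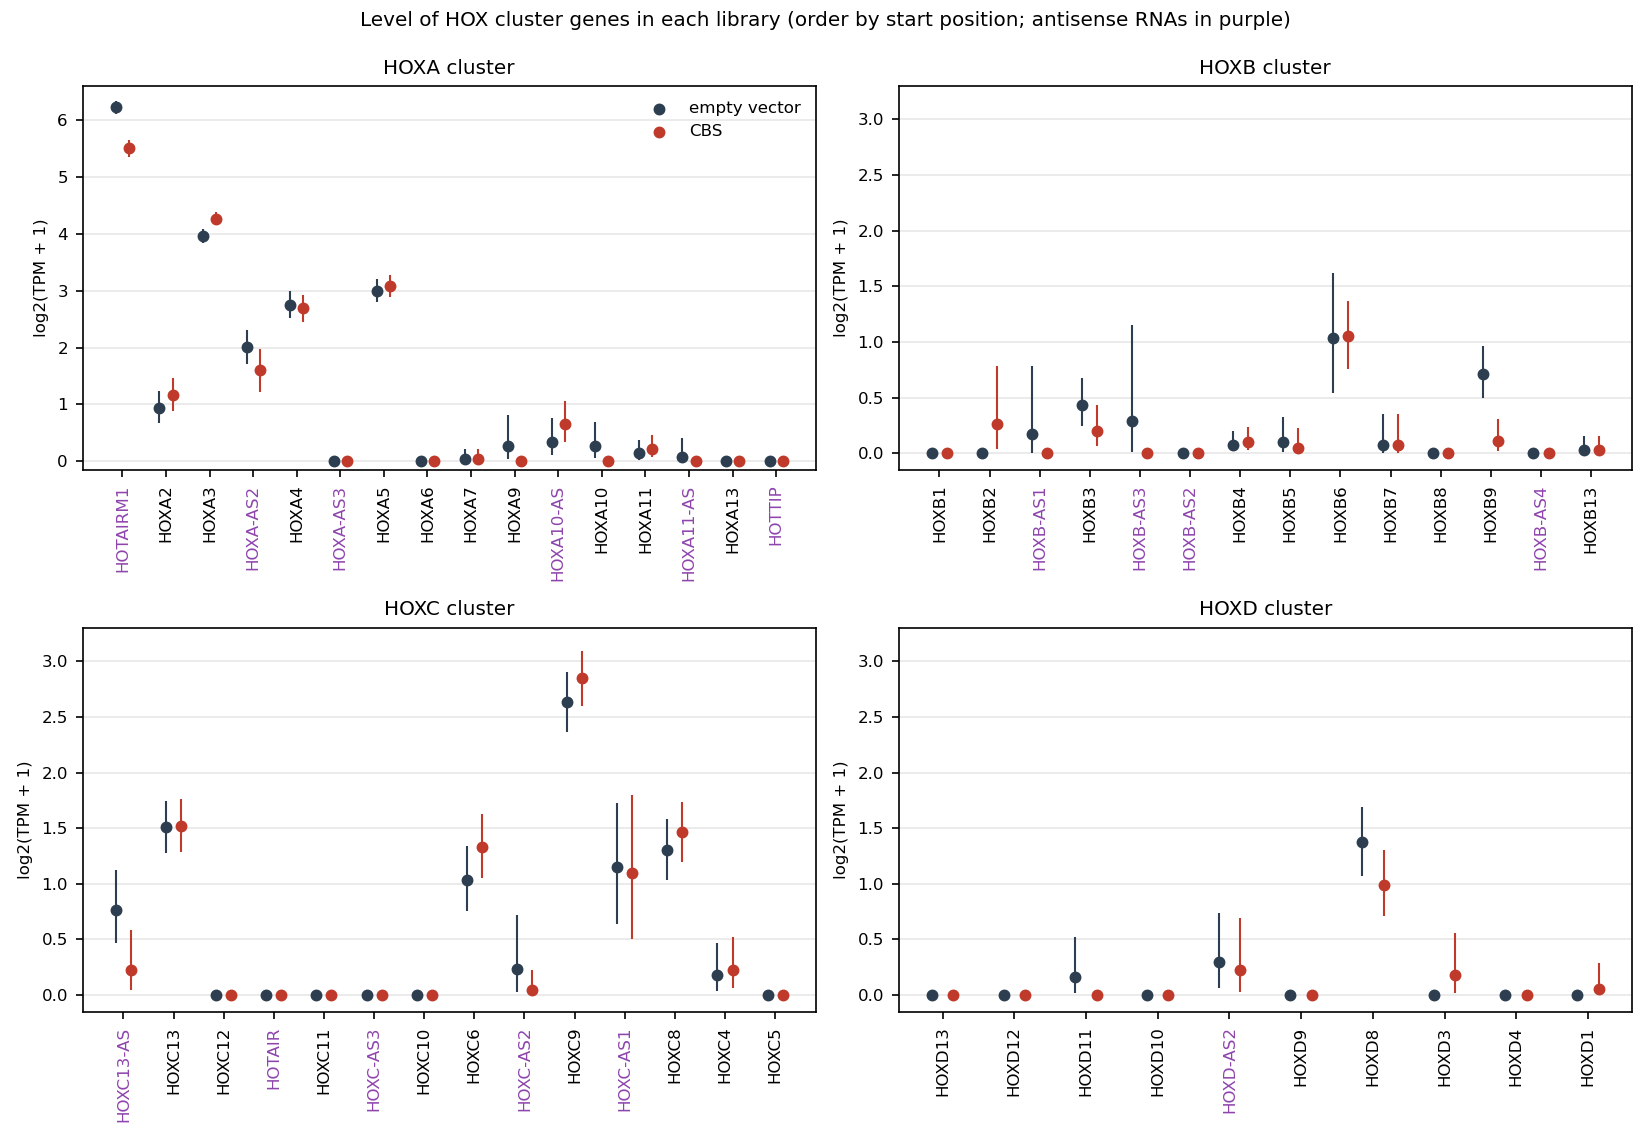
Level of 54 members in each library as log2(TPM + 1), by cluster and in order of start position, with antisense RNAs named in purple; bars are 95% counting intervals, and the axis of HOXA reaches higher than those of the other clusters. HOTAIRM1 is the highest member in each library, at 44.29 and 73.85 TPM, and HOXA3 the next, while 19 members lie at 0 in both.

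Between genes, levels were compared in the authors' TPM, values scaled for transcript length and depth. HOTAIRM1 stood highest, with 44.29 TPM with CBS against 73.85 in the control. HOXA3 followed with 18.25 and 14.59. Lower in the order stood HOXA5 with 7.49 and 7.02 TPM, HOXC9 with 6.21 and 5.22, and HOXA4 with 5.46 and 5.74. The counting intervals of HOTAIRM1 and HOXA3 lay apart from each other and above those of all other members in both libraries. HOXA5, HOXC9 and HOXA4 could not be ordered.

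Below these came a group near 1 to 3 TPM. HOXA-AS2 had 2.03 TPM with CBS and 3.01 in the control, HOXC13 1.87 and 1.85, and HOXC8 1.76 and 1.47. HOXD8 had 0.99 and 1.59, HOXC6 1.52 and 1.05, HOXA2 1.24 and 0.92, and HOXB6 1.07 and 1.05. The interval of HOXA4 lay above that of HOXA-AS2 in both libraries, and within the group neighbours overlapped in both. HOXC13-AS with 0.17 and 0.70 TPM, HOXB9 with 0.08 and 0.64, and HOXB3 with 0.15 and 0.35 were the lowest of the 16.

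By paralogous group, the coding counts were uneven. Group 3 had 555 counts with CBS and 481 in the control, nearly all HOXA3. Group 4 had 109 and 114, group 5 had 176 and 150, group 6 had 63 and 34, group 8 had 71 and 73, and group 9 had 107 and 106. Groups 7, 10, 11 and 12 held at most 5 counts in either library. Group 13 had 66 and 66, all HOXC13 but for 1 count of HOXB13 in each library. In group 9 the equal totals joined unlike members, HOXC9 with 104 and 80 and HOXB9 with 3 and 24.

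Promoter sequence is shown for a pair that overlaps on opposite strands (HOXA-AS2 and HOXA4), for the HOXD gene that was read (HOXD8) and for 2 genes at 0 in both libraries (HOXA6 and HOXD13). The sequences are from RefSeq, GRCh38.p14, and run 5′ to 3′ toward the start site on the gene's strand, up to 250 bases before it and ending before any annotated UTR. Capitals mark CG pairs, the sites of DNA methylation. They lie at chr7:27121669-27121918, plus strand (HOXA-AS2), chr7:27130800-27131007, minus strand (HOXA4), chr2:176129455-176129693, plus strand (HOXD8), chr7:27147775-27148024, minus strand (HOXA6), and chr2:176092471-176092720, plus strand (HOXD13).
HOXA-AS2: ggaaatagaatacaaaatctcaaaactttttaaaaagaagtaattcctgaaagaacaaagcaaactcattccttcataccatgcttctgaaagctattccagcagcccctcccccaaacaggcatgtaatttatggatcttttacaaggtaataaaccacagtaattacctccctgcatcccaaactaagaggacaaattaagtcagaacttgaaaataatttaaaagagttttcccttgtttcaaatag
HOXA4: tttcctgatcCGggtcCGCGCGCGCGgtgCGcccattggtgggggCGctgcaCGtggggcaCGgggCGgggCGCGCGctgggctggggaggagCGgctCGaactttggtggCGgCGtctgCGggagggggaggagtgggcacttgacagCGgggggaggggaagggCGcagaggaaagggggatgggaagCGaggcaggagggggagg
HOXD8: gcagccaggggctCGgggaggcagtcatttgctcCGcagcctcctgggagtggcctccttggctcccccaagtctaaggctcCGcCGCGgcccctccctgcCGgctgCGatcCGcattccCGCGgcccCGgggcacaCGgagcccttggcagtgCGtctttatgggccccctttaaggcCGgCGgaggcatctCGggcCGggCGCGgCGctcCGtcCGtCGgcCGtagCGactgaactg
HOXA6: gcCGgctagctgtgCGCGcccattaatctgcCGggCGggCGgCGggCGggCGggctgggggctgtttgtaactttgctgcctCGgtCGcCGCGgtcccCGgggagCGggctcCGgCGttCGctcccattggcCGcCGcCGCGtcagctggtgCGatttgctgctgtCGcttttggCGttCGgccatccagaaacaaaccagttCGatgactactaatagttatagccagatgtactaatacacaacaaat
HOXD13: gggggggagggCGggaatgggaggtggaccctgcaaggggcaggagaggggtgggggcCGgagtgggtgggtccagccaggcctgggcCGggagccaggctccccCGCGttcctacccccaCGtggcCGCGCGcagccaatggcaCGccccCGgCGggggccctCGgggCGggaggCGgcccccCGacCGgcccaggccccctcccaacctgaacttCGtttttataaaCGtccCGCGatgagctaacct

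The stretch before HOXA-AS2 held 0 CG pairs, against 22 before HOXA4, 25 before HOXD8, 27 before HOXA6 and 21 before HOXD13. Those of HOXA-AS2 and HOXA6 precede a RefSeq start that lies inside the gene span of the deposited data. The stretches were 208 bases long for HOXA4, 239 for HOXD8 and 250 for the others, so the numbers are not for equal lengths. CG-rich stretches thus stood before a gene at 101 and 108 counts and before genes at 0 alike. RefSeq promoters were matched for 29 of the 55 members, with 37 windows of 250 upstream bases. The 11 windows of the 5 matched genes with at least 10 counts held a median of 11 CG pairs (0 to 28), but 7 of these windows are starts of HOXA3 alone. Medians were 19 for the 13 windows of genes with 1 to 9 counts and 14 (1 to 40) for the 13 windows of genes at 0. All 35116 RefSeq windows had a median of 11. Searched on both strands, TGATNNAT, a joint HOX-PBX site, was in 4 of the 37 windows and 6.47% of all windows, and TATAAA in 6 of 37 and 10.7% of all. The retinoic acid element DR5, AGGTCA given 2 times in 1 direction with 5 bases between, was in 0 of 37 and 0.00285% of all. An exact repeat this rare could hardly be met in 37 windows, so its absence there says nothing about these promoters.

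The comparison of CBS with the empty vector used counts scaled between libraries by TMM, with a prior count of 5. A gene was called when it differed by a fold of at least 2 with an interval outside a ratio of 1. Calls were first made among genes with at least 10 counts in 1 library whose mean over both was at least 1 CPM. Of the 12 members above this minimum, 0 were called higher, against 1.41% of the 13304 genes tested, and 1 was called lower, against 5.28%. The gene called was HOTAIRM1. The intervals of 10 members held a ratio of 1 and 2, those of HOTAIRM1 and HOXA-AS2, lay below it. Among all genes 31.1% of intervals lay below 1, and 62.7% excluded it on either side. Intervals narrow as counts rise, and these shares are not for genes matched to the members in counts. They therefore do not show that the members differed less than other genes. The median log2 fold was 0.01 for the members and 0.00 for all genes. In RNA from whole cultures, fewer cells using a gene and less RNA per cell cannot be told apart.

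With 10 counts in 1 library as the sole minimum, 16 members were tested. HOXB6 was called higher, against 2.16% of 15419 genes, and HOTAIRM1, HOXB9 and HOXC13-AS were called lower, against 7.41%. The 3 added calls are genes that passed 10 counts in 1 library alone, so that a gene of this kind had to differ to be tested at all. Among the 2115 genes of the same low level, 6.86% were called higher and 20.8% lower. These shares set the background for 4 members, HOXB3, HOXB6, HOXB9 and HOXC13-AS. The median log2 fold of the 16 was -0.13, against -0.02 for all genes.

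**Figure D2:**
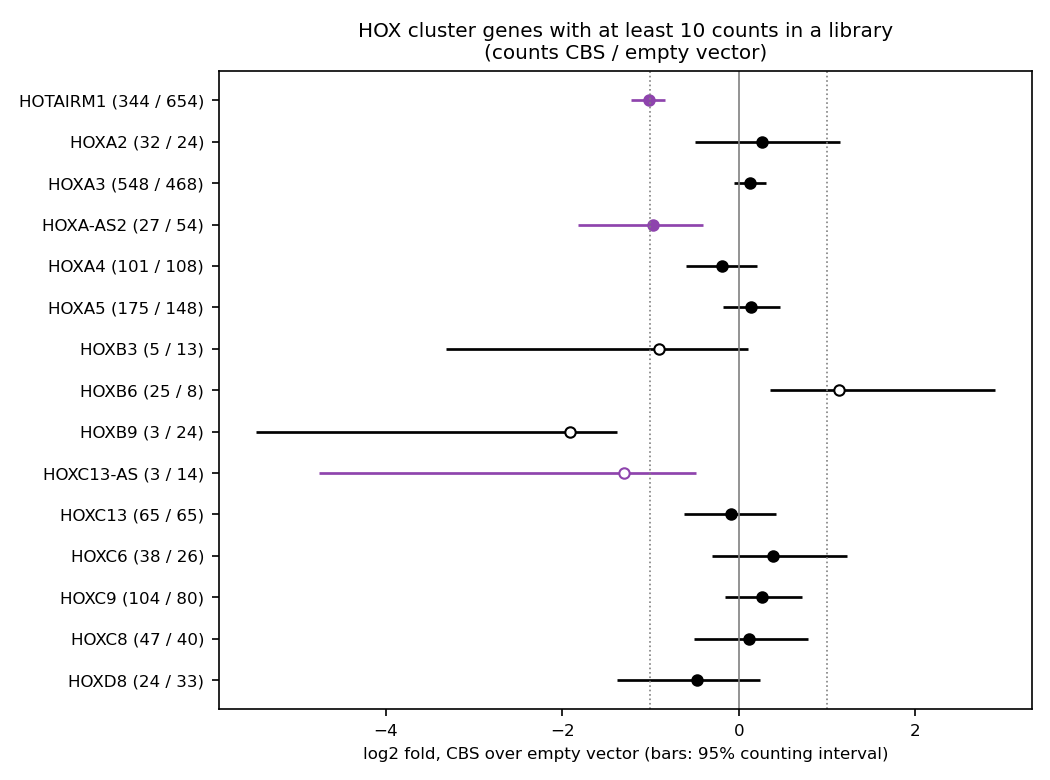
Log2 fold (CBS over empty vector, prior count of 5) of 15 members with at least 10 counts in a library; bars are 95% counting intervals of the ratio without the prior count, purple marks antisense RNAs, open circles the members with a mean under 1 CPM, and dotted lines a fold of 2. The coding genes with filled circles all have bars that cross 0, and the antisense RNAs lie at -0.97 to -1.30.

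The coding genes with appreciable counts differed little between the libraries. HOXA3 had a log2 fold of 0.13 (-0.05 to 0.31). HOXA5 had 0.14 (-0.18 to 0.47), HOXA4 -0.19 (-0.60 to 0.21), and HOXC9 0.27 (-0.15 to 0.72). HOXC13 had -0.09 (-0.62 to 0.42), a value whose sign was the other way by TPM and with the GC and length trend removed. HOXC8 had 0.12 (-0.50 to 0.78). The intervals of these 6 genes held a ratio of 1 and excluded a fold of 2 in either direction. For HOXA2 at 0.27 (-0.49 to 1.14), HOXC6 at 0.39 (-0.31 to 1.23) and HOXD8 at -0.47 (-1.38 to 0.24), the interval reached a fold of 2 in 1 direction. Summed over the 39 coding genes, the counts were 1484 and 1369, a scaled ratio of 1.01 (0.940 to 1.09).

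**Figure D3:**
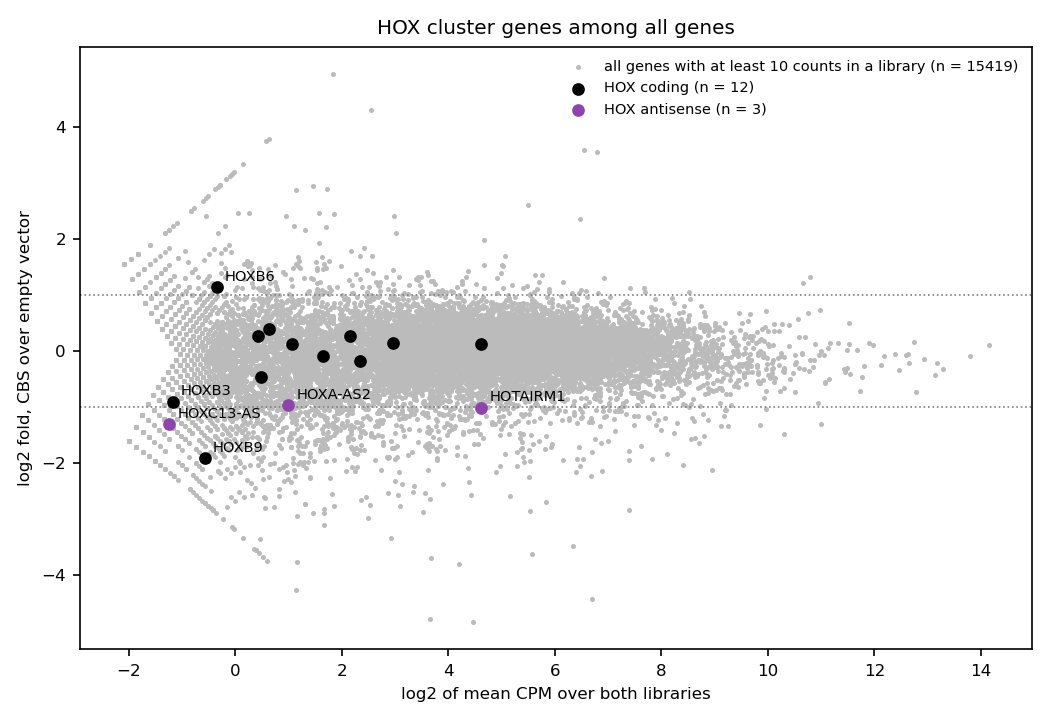
Log2 fold against the log2 mean CPM of both libraries for the 15419 genes with at least 10 counts in a library (grey), with 12 coding (black) and 3 antisense (purple) HOX members; dotted lines mark a fold of 2. HOTAIRM1 is the member furthest from 0 among those at a mean of at least 1 CPM, and the wide spread of grey points at the left edge is where HOXB6, HOXB9 and HOXC13-AS lie.

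Taken as a sum, the antisense RNAs stood lower with CBS. Over all 16, the counts were 392 with CBS and 743 in the control, a ratio of 0.493 (0.435 to 0.558). HOTAIRM1 supplied most of these, and the other 15 gave 48 and 89, a ratio of 0.504 (0.347 to 0.724). HOXA-AS2 and HOXC13-AS made up most of that difference, and the 13 antisense RNAs under 10 counts gave 18 and 21, a ratio of 0.801 (0.402 to 1.58). HOXA10-AS, with 9 and 4 counts, was the only antisense member with more counts in the CBS library. The antisense share of the HOX counts was 20.9% (19.1 to 22.8) with CBS and 35.2% (33.1 to 37.3) in the control. By the authors' TPM the sums were 48.40 and 79.87, a ratio of 0.606, beside 56.27 and 52.60 for the coding genes, a ratio of 1.07. Lower counts were common among antisense genes in general. In the 418 genes that GENCODE types as antisense, at the stricter minimum, the median log2 fold was -0.25, and 12.2% were called lower and 1.67% higher. With 10 counts as the sole minimum, 15.1% of 822 were called lower and 3.28% higher. At the stricter minimum, protein-coding genes had a median of 0.02.

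HOTAIRM1, at chr7:27095647-27100265 on the plus strand, was the member with the most counts and the narrowest interval among those called. Its 344 against 654 counts gave a log2 fold of -1.01 (-1.22 to -0.83), a ratio of 0.491 (0.430 to 0.561). The fold lies at the threshold of 2, so the call rests on small changes of scale: with plain library totals the log2 fold was -0.94 and by TPM, as log2(TPM + 1), it was -0.72. A second gene ID without a symbol, ENSG00000276771, lies wholly in its exons at chr7:27098900-27099114, with all 215 of its bases. It had 20 and 51 counts, a ratio of 0.366 (0.207 to 0.625). Adding its reads to those of HOTAIRM1 gave 364 and 705 and a ratio of 0.482 (0.424 to 0.548).

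HOXA-AS2, at chr7:27107777-27134302 on the plus strand, had 27 and 54 counts with a log2 fold of -0.97 (-1.82 to -0.41). This interval lay below a ratio of 1 but the fold did not reach 2, so it was not called. By TPM it stood at 2.03 and 3.01, a ratio of 0.674. HOXC13-AS, at chr12:53935328-53939643 on the minus strand, had 3 and 14 counts, a ratio of 0.200 (0.0369 to 0.717) and a log2 fold of -1.30. By TPM it stood at 0.17 and 0.70.

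Antisense and coding neighbours were then set against each other within each library, where depth and scaling cancel. HOTAIRM1 had 10.8 counts for each count of HOXA2 with CBS against 27.2 in the control, and the control ratio was 2.53 times the CBS ratio (1.42 to 4.57). HOXA-AS2 had 0.0493 counts for each of HOXA3 with CBS and 0.115 in the control, 2.34 times as many (1.42 to 3.93). Against HOXA4 its ratios were 0.267 and 0.500, 1.87 times (1.06 to 3.33). HOXC13-AS had 0.0462 and 0.215 counts for each of HOXC13, 4.67 times (1.21 to 26.3). HOXC-AS1 against HOXC9 gave 0.0577 and 0.113, 1.95 times, with an interval that held 1 (0.590 to 6.93). HOXA-AS2 enters 2 of these pairs, and the pairs were chosen after the antisense counts had been seen. HOXC13-AS passed 10 counts through the control alone. Pairs with fewer antisense counts did not all lean the same way: HOXA10-AS and HOXA10 had 9 and 0 counts with CBS and 4 and 3 in the control, and HOXB-AS3 and HOXB6 had 0 and 25 with CBS and 1 and 8 in the control.

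**Figure D4:**
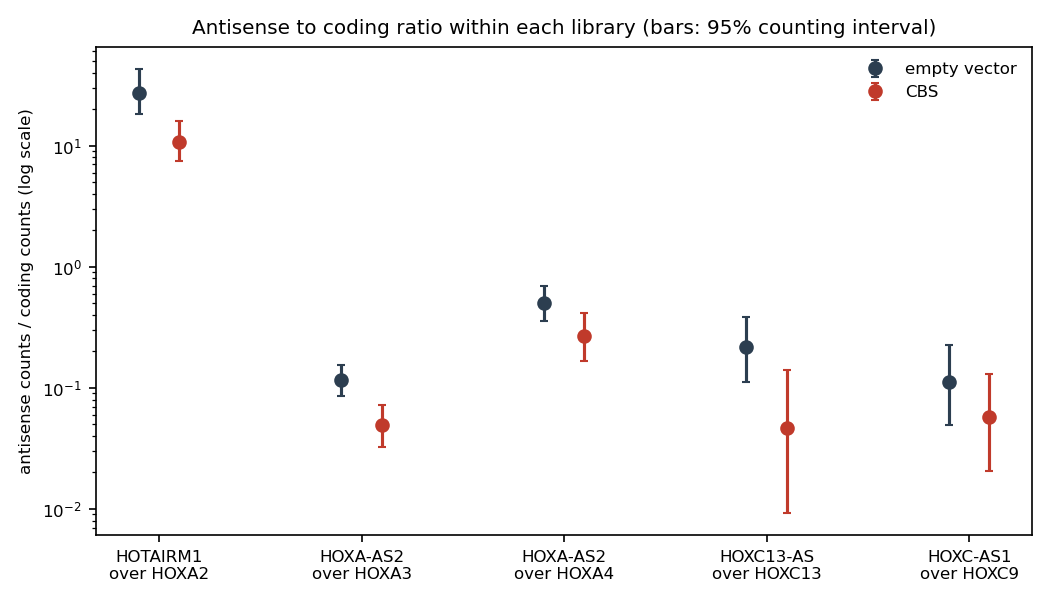
Antisense counts divided by the counts of a neighbouring coding gene in each library, on a log axis, with 95% counting intervals. The 5 pairs plotted were chosen after the antisense counts had been seen. The empty-vector point lies above the CBS point in each, and the bars of HOTAIRM1 over HOXA2 (27.2 and 10.8) and of HOXA-AS2 over HOXA3 (0.115 and 0.0493) do not overlap.

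The exons of these pairs overlap in part: by 374 bases for HOXA-AS2 and HOXA3, 254 for HOXA-AS2 and HOXA4, and 172 for HOXC13-AS and HOXC13. The overlap was 608 bases for HOXA10-AS and HOXA10 and 425 for HOXB-AS3 and HOXB6. It was 0 for HOTAIRM1 and HOXA2 and for HOXC-AS1 and HOXC9. Whether the counting used strand was not given in the sources used here, so reads from the overlapping stretches cannot be assigned to a strand.

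HOXB9 and HOXB6 moved in opposite directions at low counts. HOXB9, at chr17:48621159-48626356, had 3 counts with CBS against 24 in the control, a ratio of 0.117 (0.0225 to 0.385). Its log2 fold with the prior count was -1.92, and its TPM values were 0.08 and 0.64. HOXB6, at chr17:48595751-48604992, had 25 and 8 counts, a ratio of 2.92 (1.28 to 7.49) and a log2 fold of 1.14 (0.35 to 2.90). Its TPM values, 1.07 and 1.05, had a ratio of 1.02. HOXB3 had 5 and 13 counts and a log2 fold of -0.91 (-3.32 to 0.10). Without HOXB9, the summed HOXB ratio moved from 0.727 (0.474 to 1.11) to 1.21 (0.735 to 2.02).

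The difference in HOXB6 counts thus had no counterpart in TPM. Its counts per TPM unit, which follow the transcript length behind the estimate, had a ratio of 3.19 between CBS and the control, relative to the median gene. Over 3108 genes with 10 to 50 counts, the central 95% of this ratio ran from 0.472 to 1.82, so HOXB6 lay outside it. HOTAIRM1 was at 0.890, inside the range of 0.826 to 1.25 over 10445 genes with at least 100 counts and over 1 TPM in both libraries. HOXA-AS2 was at 0.752. With 27 and 54 counts it belonged to neither set of genes, and its value lay inside the range of the low-count set. GENCODE 29 lists HOXB6 transcripts of 1660 and 1960 bases that code for protein and of 371 and 468 bases that do not. Which of these the reads were assigned to was not analysed here, and the call of HOXB6 holds for counts alone.

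**Figure D5:**
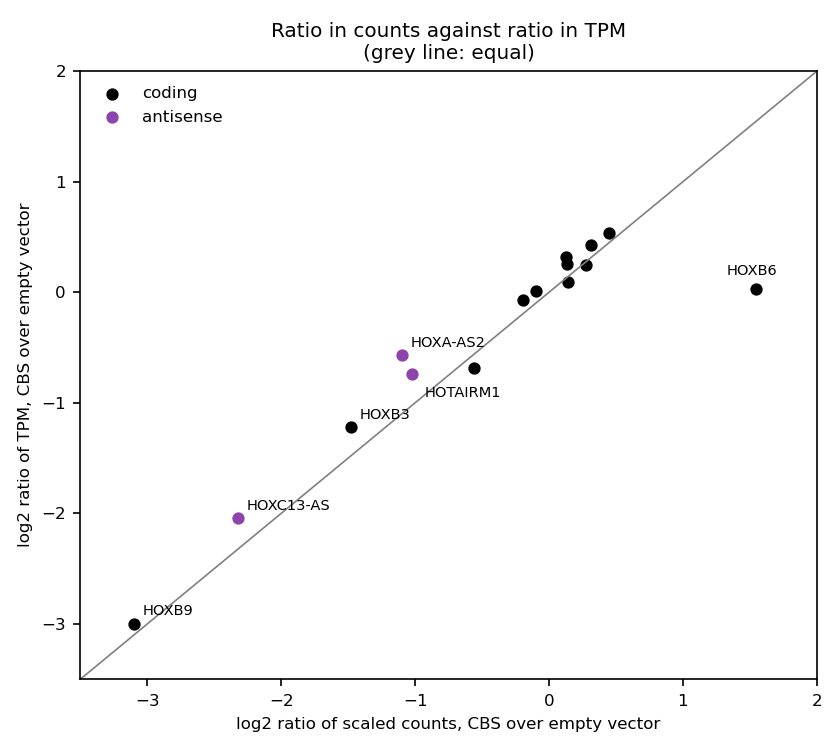
Log2 ratio (CBS over empty vector) in scaled counts against that in the authors' TPM for 15 members with at least 10 counts in a library; black points are coding genes, purple points antisense RNAs, and the grey line marks equal ratios. HOXB6 alone lies far from the line, with a ratio of 2.92 in counts and 1.02 in TPM.

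By cluster, summed counts were lower with CBS in HOXA, at 1537 and 1781 with a ratio of 0.806 (0.753 to 0.864). The 11 coding genes of HOXA had 1157 and 1068, a ratio of 1.01 (0.931 to 1.10), and the cluster without HOTAIRM1 had a ratio of 0.989 (0.911 to 1.07). The HOXA sum thus stood apart from a ratio of 1 with HOTAIRM1 and not without it. HOXC had a ratio of 1.05 (0.877 to 1.25) and HOXD one of 0.713 (0.424 to 1.19), both with intervals that held 1.

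Other RNAs inside the cluster spans, outside the rule on symbols, were also read. Of 51 such genes, 43 were at 0, the 8 microRNA genes among them, and 3 reached 10 counts. Besides the ID inside HOTAIRM1, these were HAGLR and HAGLROS in HOXD. HAGLR, antisense to HOXD1, had 26 and 48 counts and a log2 fold of -0.86 (-1.73 to -0.27), which did not reach a fold of 2. HAGLROS had 28 and 19 counts and a log2 fold of 0.38 (-0.43 to 1.38). Genes within 500 kb on either side of the clusters gave 28 with at least 10 counts. None was called higher, and 3 were called lower, B4GALNT2 beside HOXB with 3 and 14 counts, and MIR3198-2 with 2 and 11 and ITGA5 with 1610 and 5189 beside HOXC, with a median log2 fold of -0.17. Of all genes at this minimum, 2.16% were called higher and 7.41% lower. The share called lower was 20.8% among those under a mean of 1 CPM, such as B4GALNT2 and MIR3198-2.

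The proteins that act with HOX factors or on HOX chromatin were measured in both libraries, and few were called. These lists are described by their counts beside the median of 0.00 over all genes and the shares of all genes called, 1.41% higher and 5.28% lower, which for a list of at most 14 genes amount to less than 1 gene in either direction. Of the TALE homeodomain cofactors, which bind DNA with HOX proteins, 7 of 9 were tested, 0 were called higher and 1 lower, with a median log2 fold of -0.14. MEIS2 stood at 0.40, MEIS1 at 0.25, PKNOX1 at 0.22 and PBX2 at -0.17. The gene called was MEIS3, with 6 and 36 counts. The 14 MLL/trithorax and co-activator genes had 0 calls and a median of 0.17, with WDR5 at 0.55, DPY30 at 0.48, RBBP5 at 0.35 and BRPF1 at 0.34. The 10 genes of CTCF and cohesin, which form boundaries in the clusters, had 0 calls and a median of 0.25.

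Of 12 genes of the PRC2 list, 0 were called higher and 1 lower, with a median of 0.16. EED, a core subunit, stood at 0.55, PHF1 at -0.52, JARID2 at -0.39, and KDM6B, which encodes a demethylase acting against PRC2, was the gene called. Of 13 genes of PRC1, which compacts PRC2-marked chromatin, CBX2 was called higher with 85 and 37 counts, 0 were called lower, and the median was 0.10. CBX7 stood at -0.61, RING1 at -0.46 and PHC2 at -0.44. Activity and histone marks were not measured.

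Of the 14 genes for retinoic acid signalling, which activates anterior HOX genes and HOTAIRM1, 7 were tested, 0 were called higher and 1 lower, with a median of -0.28. ALDH1A3, which makes retinoic acid, stood at 0.50, with 18400 and 12139 counts, RXRB at -0.48, RARG at -0.45 and RARA at -0.28. The gene called was CRABP2, a carrier of retinoic acid, with 17 and 84 counts. Of 8 other upstream factors, 3 were tested and EGR2, a hindbrain regulator, was called lower with 18 and 39 counts, GATA6 stood at -0.50, and CDX1, CDX2, CDX4 and GATA4 were at 0. Of 10 related homeobox genes, 8 were at 0, and MNX1 had 72 and 51 counts. MEIS3, CBX2, CRABP2 and EGR2 are named after their values were seen.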

How the data were processed

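RNA sequencing of 2 libraries, 1 per group, was analysed. The CBS group was taken from the genotype in the labels and the control group from the sample title. Columns of the deposited data were matched to the samples by name. Per the labels' protocols, total RNA was sequenced on the DNBseq platform. Trimmomatic 0.39, STAR 2.6.1d, RSEM 1.3.2 and GRCh38 are named, without roles, per the submitters' processing notes. The sources used here do not give the annotation release, whether counting used strand, or whether reads were paired. Expected counts deposited by the authors are estimates that need not be whole and were rounded. The authors also deposited TPM values, used to compare levels between genes and, as log2(TPM + 1), as an alternative. Depth was 20785957 and 20433062 counts.

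TMM factors (edgeR 4.0.16, R 4.3.3) were 1.03 and 0.975, and no model was fitted. Folds and exact conditional binomial (Clopper-Pearson) intervals were computed in Python 3.11.15 with scipy 1.17.1 and tested on simulated data. The simulated counts held counting error alone, so they checked the computation and not how well the intervals fit these data. PCR-amplified reads are not independent molecules, so intervals cover counting error only and may be too narrow. Transcript types, exon overlaps, GC content and length came from GENCODE 29, and the GC and length trend was removed with statsmodels 0.14.6 as an alternative. Coordinates of genes are those of the deposited table, in GRCh38.

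The members and gene lists were chosen with earlier results of these data known. Members with at least 10 counts in a library are named with their values. Of each list, up to 4 members with at least 100 counts and the largest folds are named, with exceptions marked. The rule also asked for protein sequences, which are not used here. A member and a list gene are not reported here, though sums and counts include them. Alternatives were DESeq2 1.42.0 size factors, plain totals, TPM, other prior counts, filters and folds, and removal of the GC trend. Sums without HOTAIRM1 or HOXB9 or over antisense members under 10 counts, the sums of antisense and coding genes and the neighbour ratios were added after seeing the data.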

Additional observations from a re-analysis of the deposited data

How the results depend on the processing

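Of 97 values of single members under alternatives, 92 lay inside the counting interval of the main value and 5 outside it. At low counts this interval is wide, so lying inside it says little. HOXB9 lay inside at -2.73 with a prior count of 1, from -1.92, in an interval of -5.47 to -1.38. HOXC13, at -0.09, changed sign in 2 of the 97, to 0.01 by TPM and 0.03 with the GC and length trend removed, and no other member did. Of 57 values of counts, medians, sums and ratios, 41 stayed close to the main value and 16 moved. Close meant within 1.5 times for counts and inside the main counting interval for sums and ratios. For medians it meant a small fixed shift in log2 fold, so 0.08 with plain library totals counted as close to 0.01. The number of members called lower was 1, and it was 0 with plain library totals, with the authors' TPM, with a prior count of 20 and at a fold of 4. It was 2 with a prior count of 1 and at a fold of 1.5, and 3 with 10 counts as the sole minimum and with no filter. The number called higher was 0, and it was 1 with 10 counts as the sole minimum and with no filter. The median log2 fold of the members, 0.01, was -0.13 under these 2 filters. HOTAIRM1 had a log2 fold of -1.02 with DESeq2 size factors, -0.98 with a prior count of 20, -1.02 with a prior count of 1, -0.94 with plain totals and -1.04 with the GC and length trend removed. By TPM, as log2(TPM + 1), HOTAIRM1 was at -0.72, HOXA-AS2 at -0.40, HOXB6 at 0.01 and HOXB9 at -0.60. HOXB9 was at -0.97 with a prior count of 20. Without the added 1, the TPM ratio of HOXB9 was 0.125, beside 0.117 in scaled counts. The HOXA sum had a ratio of 0.989 without HOTAIRM1, the HOXB sum 1.21 without HOXB9, and the antisense sum 0.606 in TPM and 0.801 over its members under 10 counts alone. Plain totals and TPM moved the median of all genes to 0.07 and 0.09. The cause of these moves was not tested. No paired analysis was possible because each group has 1 library, and leaving out a replicate was not possible either. At this depth, differences of the 39 members under 10 counts could not be detected.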
